A study of Saccharomyces cerevisiae BY4741 with 238 samples.

Results

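The 34 genes described here encode the yeast proteasome and the factors closest to it: 7 subunits of the alpha ring, 7 of the beta ring, 10 of the base, 8 of the lid, the maturation factor UMP1 and the transcription factor RPN4. They were taken by name from a table of 6717 features and were all among the 5015 features tested, which are the features whose values averaged 10 or more across the 238 libraries. Each library came from 1 well of Saccharomyces cerevisiae strain BY4741, grown in rich medium (YPD) in grids that cross a pair of growth inhibitors, and each of the 6 grids is called an experiment below. The agents were cycloheximide, which blocks translation elongation, lithium chloride (LiCl), myriocin, which blocks the first step of sphingolipid synthesis, and rapamycin, which inhibits the growth regulator TORC1.

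Cultures were grouped by drug and by growth relative to drug-free cultures. The growth-matched groups, at a relative growth of 0.35 to 0.66, held 10 cycloheximide wells (52.2 to 76.4 ng/ml), 10 LiCl wells (9.24 to 15.7 mg/ml), 11 myriocin wells (0.349 to 0.51 µg/ml) and 11 rapamycin wells (3.96 to 6.62 ng/ml). Milder doses gave 13 cycloheximide, 18 LiCl, 9 myriocin and 19 rapamycin wells, with a relative growth of 0.675 to 1.03, and 5 wells held myriocin at 0.579 to 0.962 µg/ml, where relative growth was 0.0358 to 0.331. Mixtures were 22 wells of cycloheximide with LiCl, 20 of cycloheximide with myriocin, 19 of cycloheximide with rapamycin, 26 of LiCl with myriocin, 18 of LiCl with rapamycin and 16 of myriocin with rapamycin, with a relative growth of 0.361 to 0.658. They were set against 11 wells with no drug (0.991 to 1.12). All wells share the strain, the medium and repeated automated re-inoculation. Cycloheximide, myriocin and rapamycin came from DMSO stocks and LiCl was dissolved in the medium, and the labels do not say whether drug-free wells held DMSO. Wells of a grid were seeded from an overnight culture and most were chosen for a relative growth near 0.5, so p-values measure the spread between wells. Markers of the MATa mating type had mean normalized values of 221 (MFA1), 150 (MFA2), 122 (STE2), 46.1 (STE6) and 23 (BAR1). Markers of MATalpha had lower means: 9.78 (MF(ALPHA)2), 5.11 (SAG1), 1.26 (STE3) and 0.285 (MF(ALPHA)1). LEU2, MET17 and URA3, which BY4741 lacks, took each library's lowest value in 238 of 238 libraries.

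The proteasome degrades proteins tagged with ubiquitin. Its barrel-shaped core has outer alpha rings and inner beta rings that carry the proteolytic sites, and its cap has a base of ATPases that unfold the substrate and a lid that removes ubiquitin. In yeast the subunit genes are activated together by Rpn4, which binds the proteasome-associated control element (PACE) in their promoters. Rpn4 is itself a very short-lived substrate of the proteasome, and its gene is activated by the stress factors Hsf1, Yap1, Pdr1 and Pdr3, so that a shortage of proteasome activity raises subunit transcription.

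The element is shown first, because it ties the subunit genes to RPN4. In the 300 bases before the start codon, on either strand, the 9 letters GGTGGCAAA were found in 27 of the 34 genes, against 1.21% of 6021 protein-coding genes in the RefSeq annotation of build R64. Each of the 27 promoters held it 1 time, at 75 to 174 bases from the start codon (median 111), in the direction of the gene in 19 and opposite to it in 8. The lines below give it, in capitals with 10 bases on each side, for subunit genes that the results turn on: the catalytic subunits PRE3 and PRE2, the beta subunits PUP3 and PRE7, the base subunits RPN2 and RPT6, and the lid subunits RPN3 and RPN11.
PRE3 (chrX:435035-435063, plus strand): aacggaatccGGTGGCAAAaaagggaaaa
PRE2 (chrXVI:732184-732212, plus strand): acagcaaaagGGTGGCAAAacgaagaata
PUP3 (chrV:349511-349539, minus strand): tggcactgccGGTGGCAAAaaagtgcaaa
PRE7 (chrII:141150-141178, plus strand): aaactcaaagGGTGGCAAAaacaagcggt
RPN2 (chrIX:220801-220829, minus strand): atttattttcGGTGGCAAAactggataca
RPT6 (chrVII:411352-411380, minus strand): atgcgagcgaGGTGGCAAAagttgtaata
RPN3 (chrV:196843-196871, minus strand): ctctttcttgGGTGGCAAAtgtttttcgt
RPN11 (chrVI:153259-153287, plus strand): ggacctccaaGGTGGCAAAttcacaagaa

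The 7 genes without these exact letters were PRE5, PUP1, RPN10, RPN13, RPN8, UMP1 and RPN4. The first 5 differed from them by 1 base, counted from 1 at the 5′ end of the element: G1A in PRE5, PUP1 and RPN8, and A7G in RPN10 and RPN13. UMP1 differed by 2 bases and RPN4 by 3. The 8 letters GTGGCAAA, which lack the first base, were in 30 of the 34 genes and in 2.64% of all promoters, and they overlap the longer element. The variant sites of 4 genes that are described below are given with the 9 bases aligned to the element in capitals.
PRE5 (chrXIII:901552-901580, plus strand): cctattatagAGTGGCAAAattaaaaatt
PUP1 (chrXV:631891-631919, minus strand): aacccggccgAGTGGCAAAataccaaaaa
RPN8 (chrXV:817085-817113, minus strand): gggatacctcAGTGGCAAAtcgttactca
RPN10 (chrVIII:498968-498996, minus strand): tgtaaattccGGTGGCGAAaacccgcctg

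RPN4 carried other elements. The gene lies on chromosome IV from 415113 to 416708 on the minus strand of R64, and the 500 bases before its start codon held TCCGTGGA, an element of Pdr1 and Pdr3, in both directions (434 and 391 bases from the start codon), TTACTAA, an element of Yap1 (367 bases), and the heat shock element bound by Hsf1, which alternates GAA and TTC units (335 and 8 bases, both on the opposite strand). The same 500-base window held these letters on either strand in 1.05%, 11.8% and 1.48% of the 6021 protein-coding genes. Among the 34 genes, TCCGTGGA and the heat shock element were found in RPN4 alone and TTACTAA in 6. The stretch that holds 4 of the matches is shown on the strand of the gene, with the matches in capitals. A match is a run of letters in the genome and was not tested here as a binding site.
RPN4 (chrIV:417034-417160, minus strand): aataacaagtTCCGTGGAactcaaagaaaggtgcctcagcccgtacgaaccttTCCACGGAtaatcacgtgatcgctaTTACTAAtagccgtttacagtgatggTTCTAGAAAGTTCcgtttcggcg

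Values are a normalized signal that gives every library the same distribution, so a change is a shift in rank among the library's transcripts, and fold changes are on the scale of log2(value + 1). Library depth, estimated from tied values, ranged from 64843 to 2017612 reads (median 568842.5), with 8 libraries under 142211. Reads came from the 3′ end of transcripts, so the level of a gene is not divided by its length. No member overlaps another annotated gene. In bulk cultures a smaller share of expressing cells and less RNA per cell cannot be told apart.

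RPN4 varied more than the genes it activates. After experiment means were removed, the standard deviation of log2 values over 238 libraries was 0.361 for RPN4, and 49% of the tested features had a larger one. For the 33 other members it ran from 0.121 to 0.226 with a median of 0.188, and 92.5% of the tested features had a larger standard deviation than that median. Counting error, which is larger at low values such as those of RPN4, was not removed.

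**Figure D1:**
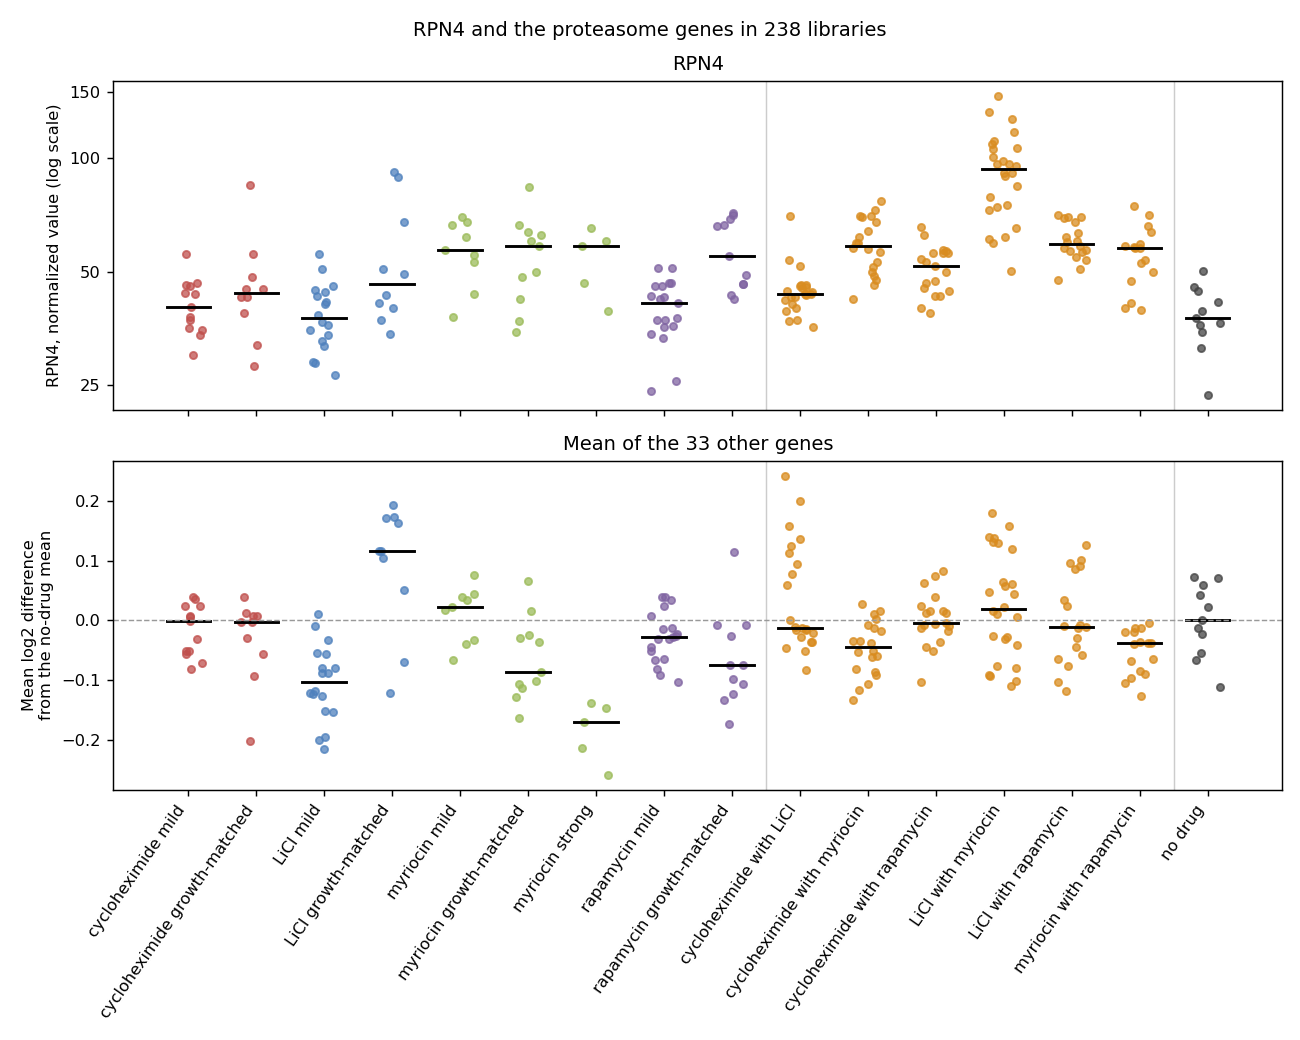
Normalized value of RPN4 (top, log scale) and mean log2 difference of the 33 other genes from the no-drug mean (bottom) in each library, by group, with no drug at the right; points are libraries and black lines are medians. The median of RPN4 was 93.5 in LiCl with myriocin, against 37.5 with no drug, while the median of the 33-gene mean stayed between -0.17 in strong myriocin and 0.12 in growth-matched LiCl.

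RPN4 was compared first at matched growth. Under rapamycin its value was 42.2 at the lowest, 54.9 at the median and 71.6 at the highest (n = 11), against 23.4, 37.5 and 50.2 with no drug (n = 11). Of the 11 rapamycin wells 6 lay above every drug-free well and none lay below the drug-free median. The increase was 0.64 ± 0.15 log2, or 1.56-fold (± standard error; limma, Benjamini-Hochberg adjusted p = 0.00254). Within experiments the difference was 0.79 in the grid of myriocin and rapamycin (5 wells against 1), 0.75 in that of LiCl and rapamycin (4 against 2) and 0.23 in that of cycloheximide and rapamycin (2 against 2).

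The other drugs did not pass the threshold for RPN4, although their point estimates were above 0. LiCl wells ran from 34 over 46.3 to 92.2 (lowest, median and highest), with a change of 0.38 ± 0.15 (limma adjusted p = 0.0741). The upper 2 LiCl values, 92.2 and 89.1, came from the grid of LiCl and myriocin, whose drug-free wells had 45.5 and 50.2. These 2 wells also held the highest LiCl dose of the group, 15700 µg/ml against at most 13500 in the others, so dose and grid cannot be told apart. Cycloheximide wells ran from 28 over 43.9 to 84.7, with 0.39 ± 0.16 (adjusted p = 0.172), and the sign differed between experiments: -0.60 in the grid with myriocin (1 well against 2), 0.61 in that with LiCl (2 against 2) and 0.38 in that with rapamycin (7 against 2). Without cycloheximide replicate 1, the well of the grid with myriocin, the change was 0.59 (adjusted p = 0.0197). Without cycloheximide replicate 4, the well with 84.7, the change was 0.30, and without the 8 shallow libraries it was 0.27 (limma adjusted p = 0.273). For LiCl the call was gained without LiCl replicate 7 (0.42, limma adjusted p = 0.04997) or replicate 10 (0.43, adjusted p = 0.0347) and without the 8 shallow libraries (0.44, adjusted p = 0.0133). It was also gained when the numbering series of the libraries replaced all batch terms of the model (0.49, adjusted p = 0.0165). Over all omissions of 1 library the LiCl change ran from 0.33 (without LiCl replicate 1) to 0.43, with limma adjusted p from 0.0347 to 0.167. With only drug-free wells below an OD600 of 0.9 the LiCl change was 0.43, without a call (adjusted p = 0.11).

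Myriocin wells had high values of RPN4, from 34.5 over 58.5 to 84.1, but 7 of the 11 came from the grid of LiCl and myriocin, where the drug-free wells were also high. With the experiment in the model the change was 0.18 ± 0.16 (limma adjusted p = 0.479). When the drugs were set against each other, RPN4 was higher under rapamycin than under myriocin by 0.46 ± 0.17 (adjusted p = 0.039), a call that was lost with the numbering series as the batch term (0.36, adjusted p = 0.144). The other 5 contrasts between drugs lay between -0.21 and 0.26 and did not pass, but with the numbering series rapamycin against cycloheximide did (0.40, adjusted p = 0.0463).

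The 33 other members were then read at matched growth. LiCl was the drug with the most calls: 6 subunit genes rose and 1 fell, where 8.39% of all tested features rose and 9.59% fell. The median over the 34 genes was 0.12, against -0.02 over all tested features, and 29 of the 34 estimates were positive. The risen genes were RPN2, which forms the scaffold of the base, the ATPase RPT6, the ubiquitin receptor RPN10, the catalytic subunit PUP1, the lid scaffold RPN8 and the lid deubiquitinase RPN11. The alpha subunit PRE5 fell. By part of the complex, calls were 0 up and 1 down of 7 in the alpha ring (median 0.12), 1 up of 7 in the beta ring (0.11), 3 up of 10 in the base (0.19) and 2 up of 8 in the lid (0.07).

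RPN2 had values of 317.9, 450.8 and 525.8 in LiCl wells (lowest, median, highest; n = 10), against 262.8, 305.2 and 350.1 with no drug (n = 11). Of the 10 LiCl wells 9 lay above every drug-free well. Its increase of 0.59 ± 0.08, or 1.51-fold, was the only subunit change of at least 1.5-fold at matched growth (limma adjusted p = 2.25e-07), and it was 0.74, 0.65 and 0.40 within the grids of LiCl with myriocin, with cycloheximide and with rapamycin. RPN8 had 178.3, 236.8 and 279.6 in LiCl wells, against 169.6, 206.5 and 254.3 with no drug, and PUP1 had 134.2, 203.7 and 236.2, against 146.8, 168.7 and 189.3, so both overlapped the drug-free range. RPN8 rose by 0.26 ± 0.08 (limma adjusted p = 0.0161) and PUP1 by 0.29 ± 0.09 (adjusted p = 0.022). PRE5 had 104.2, 112.5 and 153.6 in LiCl wells and 127.1, 136.6 and 160.7 with no drug, and 7 of 10 LiCl wells lay below every drug-free well. It fell by 0.27 ± 0.09 (limma adjusted p = 0.0247).

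RPN11 had 131.5, 175.7 and 222.7 in LiCl wells, against 125.4, 152.5 and 242.6 with no drug. Its groups overlapped. The rise was 0.27 ± 0.09 (limma adjusted p = 0.0334), with 0.49 and 0.22 within the grids of LiCl with cycloheximide and with rapamycin and -0.07 within that with myriocin, whose drug-free wells, at 220.2 and 242.6, were the highest. The other 2 catalytic subunits did not pass: PRE2 had 216.0, 291.9 and 323.8 in LiCl wells, against 232.3, 251.6 and 348.9 with no drug, and PRE3 had 158.9, 182.2 and 207.7, against 169.2, 187.7 and 205.4. UMP1 had 49.3, 62.4 and 97, against 42.4, 52.9 and 68.4, with a change of 0.30 that did not pass (limma adjusted p = 0.0926). Depth moved with this comparison, with a median of 875470.5 reads in LiCl wells (64843 to 1570379) and 623006 with no drug (352226 to 992652). The LiCl wells include the shallowest library of the series. With log2 depth as a covariate the same 7 genes were called. Only 3 of the 7 calls, RPN2, PUP1 and PRE5, were kept when drug-free wells with a final OD600 of 0.9 or more were left out, and PUP1 was also lost with the numbering series as the batch term (0.23, adjusted p = 0.0581). Leaving out 1 library at a time gave 2 calls (without LiCl replicate 4) to 9 (without LiCl replicate 10), with 4 without replicate 2 or replicate 3. Without the 8 shallow libraries 14 members were called, 12 of them rises, and the 7 were among them.

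Under myriocin 2 subunit genes fell, where 6.96% of tested features rose and 7.7% fell. RPT6 had 115.9, 145.8 and 164.7 in myriocin wells, against 139.4, 171.8 and 216.2 with no drug, and all 11 myriocin wells lay below the drug-free median. It fell by 0.31 ± 0.09 (limma adjusted p = 0.0116), and by 0.29, 0.51 and 0.24 within 3 experiments. PRE7, a beta subunit, had 132.6, 189.98 and 199.98 in myriocin wells, against 189.3, 205.6 and 225.7, and fell by 0.20 ± 0.07 (adjusted p = 0.0317), a call that was lost with the numbering series (-0.15, adjusted p = 0.137) and with drug-free wells below an OD600 of 0.9 (-0.20, adjusted p = 0.0531). The median of the 34 genes was -0.05, against -0.01 over all tested features. PRE3 (158.6, 188.02 and 217.5 in myriocin wells, against 169.2, 187.7 and 205.4), PUP1 (124.6, 161.0 and 191.02, against 146.8, 168.7 and 189.3) and PRE2 (221.4, 246.3 and 299.0, against 232.3, 251.6 and 348.9) did not pass. Leaving out myriocin replicate 1, or any of drug-free replicates 1 to 3, left 1 call.

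No subunit gene passed the threshold under rapamycin or cycloheximide at matched growth. Under rapamycin RPN4 was the single member called, where 5.2% of tested features rose and 6.48% fell, and the subunit estimates ran from -0.22 to 0.20 with a median of -0.01. Without rapamycin replicate 8, 2 members were called. By part, the rapamycin medians were 0.06 in the alpha ring, -0.01 in the beta ring, -0.07 in the base and -0.08 in the lid. Under cycloheximide 0 of 34 members were called by limma where 2.05% of tested features rose and 2.85% fell, and 1, RPN4, had an unadjusted p under 0.05, as did 17.3% of tested features. The cycloheximide estimates of the subunits ran from -0.26 to 0.22. UMP1 had 51.6, 67.3 and 85 in cycloheximide wells, against 42.4, 52.9 and 68.4 with no drug, without passing.

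**Figure D2:**
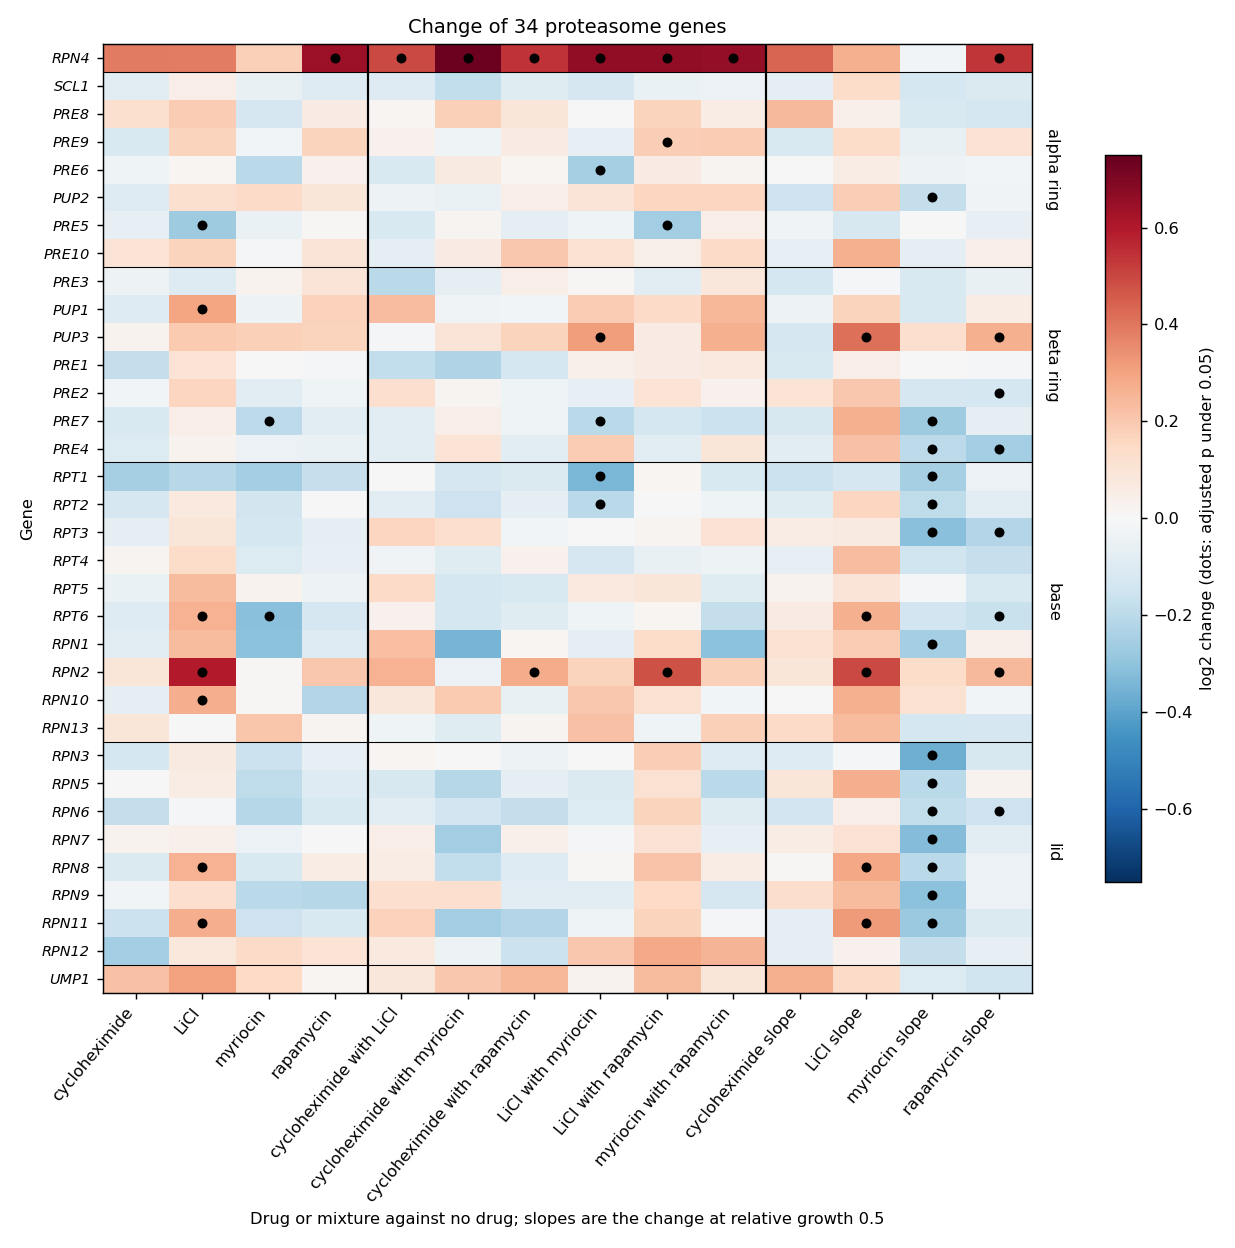
log2 change of each member (rows, RPN4 at the top and the complex's parts below it) for the 4 drugs at matched growth and the 6 mixtures against no drug, and for the 4 slopes, read where growth is 0.5 of the drug-free rate; dots mark an adjusted p under 0.05. The row of RPN4 holds 6 dots in the mixtures, RPN2 is the darkest subunit cell under LiCl, and the column of the myriocin slope holds 14 dots, 7 of them in the lid.

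When drugs were set against each other, most calls were made where LiCl was one of the drugs, and these contrasts share the LiCl wells. Between myriocin and LiCl 8 members were lower under myriocin and 0 higher, where 10.9% of tested features were lower and 13.4% higher, and the median of the 34 genes was -0.21. RPT6 had 115.9, 145.8 and 164.7 in myriocin wells and 165.5, 197.9 and 231.8 in LiCl wells, with no overlap. RPT6 differed by -0.57 ± 0.10 (limma adjusted p = 1.05e-05), RPN2 by -0.58 ± 0.09 (adjusted p = 3.51e-06) and the base scaffold RPN1 by -0.55 ± 0.13 (adjusted p = 9.92e-04). RPN8, RPN11, PRE7, PUP1 and PRE2 were the others. Between rapamycin and LiCl 6 members were lower under rapamycin (background 9.99%) and PRE5 was higher (background 9.91%). RPN10 had 70.9, 109.9 and 130.6 in rapamycin wells, against 117.4, 157.8 and 170.0 in LiCl wells. The lower ones were RPN10 (-0.50 ± 0.10; limma adjusted p = 1.18e-04), RPN2 (-0.39 ± 0.08; adjusted p = 4.70e-04), RPT6 (-0.39 ± 0.09; adjusted p = 9.58e-04), RPN11, RPN1 and RPT5, of which 5 are base genes.

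Between LiCl and cycloheximide 6 members were higher under LiCl and 0 lower, where 3.21% of tested features were higher and 4.29% lower. RPN2 differed by 0.51 ± 0.10 (limma adjusted p = 4.06e-04), RPN8 by 0.37 ± 0.10 (adjusted p = 0.0103) and RPN11 by 0.43 ± 0.11 (adjusted p = 0.0103), and PRE9, PUP1 and RPT6 made up the 6. Between rapamycin and cycloheximide only PRE9 passed, 0.28 ± 0.08 higher under rapamycin (adjusted p = 0.0108; background 4.75% higher and 5.3% lower), and between rapamycin and myriocin only RPN4 did (background 9.59% higher and 12.1% lower). Between myriocin and cycloheximide 0 members passed by limma (background 2.61% higher and 2.75% lower), and 2 had an unadjusted p under 0.05, as did 19.8% of tested features. LiCl wells also had the highest median depth, 875470.5 reads, against medians of 423430 under myriocin, 548920 under rapamycin and 554074.5 under cycloheximide. With log2 depth as a covariate 8 members were called between myriocin and LiCl, 4 between rapamycin and LiCl and 3 between LiCl and cycloheximide.

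Gradients of a single drug within 1 experiment gave the dependence on growth, stated as the change that the fit gives where growth is 0.5 of the drug-free rate. For rapamycin (24 wells and 1 drug-free well) RPN4 had 24, 41.3 and 51 in mild wells and 46.3, 49.1 and 70.9 in growth-matched wells (lowest, median, highest), against 31.3 with no drug. Its slope was 0.54 ± 0.11 (limma adjusted p = 4.80e-04). The fitted slopes of RPN4 were 0.44 ± 0.17 for cycloheximide (adjusted p = 0.0755), 0.27 ± 0.19 for LiCl (adjusted p = 0.387) and -0.02 ± 0.10 for myriocin (adjusted p = 0.867). In the myriocin gradient RPN4 had 43.6, 59.5 and 70 in mild wells, 49.7, 62.4 and 84.1 in growth-matched wells and 39.2, 58.3 and 65.4 in strong wells, against 45.5 and 50.2 with no drug, and these ranges overlapped.

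Subunit genes fell along the myriocin gradient (20 wells and 2 drug-free wells). Of the 34 members 14 fell and 0 rose, where 23.2% of tested features fell and 20.4% rose, and the median was -0.14, against -0.03 over all tested features. The lid held 7 of the 14, with all 8 lid estimates below 0 and a lid median of -0.24. RPN3, a lid subunit, had 127.7, 154.4 and 178.8 in mild wells, 115.5, 154.2 and 173.3 in growth-matched wells and 85.3, 104.5 and 129.8 in strong wells, against 156.4 and 206.5 with no drug. All 5 strong wells lay below both drug-free wells. The slope was -0.37 ± 0.08 (limma adjusted p = 3.70e-04). PRE7 had a slope of -0.27 ± 0.06 (adjusted p = 3.40e-04). The lid subunit RPN9 had 110.5, 126.9 and 140.0 in mild wells, 101.6, 117.4 and 159.2 in growth-matched wells and 86.6, 93.9 and 110.2 in strong wells, against 157.7 and 159.4 with no drug, with a slope of -0.31 ± 0.07 (adjusted p = 9.97e-04). By part, the medians were -0.07 in the alpha ring with 1 fall, -0.12 in the beta ring with 2 and -0.14 in the base with 4.

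This count depended on the strong wells. Without wells of relative growth under 0.35, 2 members were called, 1 of them among the 14, with -0.24 for RPN3 (adjusted p = 0.2), -0.18 for PRE7 (adjusted p = 0.189) and -0.23 for RPN9 (adjusted p = 0.229), and those wells were also shallow, with 127812 to 281769 reads. With log2 depth as a covariate 8 were called, 5 of them among the 14, and RPN3 (-0.29, adjusted p = 0.133) and RPN9 (-0.29, adjusted p = 0.0996) were not. The part of depth in this slope was otherwise not tested. Strong wells set directly against the growth-matched wells of the same experiment gave 2 falls, RPN3 (-0.47 ± 0.14; limma adjusted p = 0.0203) and PRE7 (-0.31 ± 0.11; adjusted p = 0.0477), where 10.6% of tested features fell and 9.55% rose. With log2 depth as a covariate neither passed (adjusted p = 0.524 for each), with estimates of -0.47 for RPN3 and -0.37 for PRE7. All strong wells belong to the lower growth-reference set (the labels' ratio of absolute to relative growth takes a higher and a lower value in each grid), and the growth-matched wells to both. With the set as a term neither passed (adjusted p = 0.0593 and 0.11), with estimates of -0.47 and -0.31. PRE3 had 129.7, 186.5 and 194.03 in strong wells and 158.6, 188.02 and 217.5 in all growth-matched myriocin wells, with no call. RPN4 differed by -0.24 ± 0.17 (limma adjusted p = 0.329). Leaving out 1 well at a time gave 0 to 4 calls, with 0 without strong replicate 2 or 4, 4 without strong replicate 5, 1 without strong replicate 3 and 1 without growth-matched replicate 2, 3, 5, 6, 7 or 8.

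The LiCl gradient (24 wells and 2 drug-free wells) gave 5 rises and 0 falls among members, where 5.46% of tested features rose and 7.18% fell. RPN2 had 248.9, 348.7 and 374.8 in mild wells and 317.9, 439.8 and 516.8 in growth-matched wells, against 301.0 and 343.5 with no drug, so the growth-matched median lay above every mild and drug-free well while the ranges overlapped. Its slope was 0.50 ± 0.10 (limma adjusted p = 5.82e-04). PUP3 followed with 0.41 ± 0.12 (adjusted p = 0.0162) and RPT6 with 0.27 ± 0.08 (adjusted p = 0.0301), and RPN8 and RPN11 also passed. With only wells below an OD600 of 0.9, PUP3 (0.31, limma adjusted p = 0.0977) and RPT6 (0.17, adjusted p = 0.34) lost their calls. RPN8 lost its call with drug-free wells below that density (0.27, adjusted p = 0.0575). RPN11 lost its call without the growth-reference set as a term (0.32, adjusted p = 0.0612) and with no filter on low values (0.32, adjusted p = 0.0549). PUP3 had 101.3, 120.0 and 140.9 in mild wells and 137.0, 148.0 and 207.7 in growth-matched wells, against 119.2 and 119.3 with no drug. The mean of the 33 genes other than RPN4, as a log2 difference from the drug-free mean, had a median of -0.10 in all mild LiCl wells and 0.12 in all growth-matched LiCl wells. A straight slope does not show a fall at mild doses that is followed by a rise. Of the 18 mild wells, 16 lay below all 11 drug-free wells of the series for PRE5 and 14 for PRE7, while 8 lay above them for RPN2.

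Along the rapamycin gradient members were called in both directions, in shares near or below those of all tested features. Beside RPN4, RPN2 (0.24 ± 0.05; limma adjusted p = 7.79e-04) and PUP3 (0.27 ± 0.08; adjusted p = 0.0139) rose, where 13.1% of tested features rose. RPN2 had 235.6, 289.1 and 324.8 in mild wells and 328.7, 340.2 and 372.2 in growth-matched wells, against 291.4 in the single drug-free well, so the growth-matched wells lay above all others. The 5 that fell, where 14.9% of tested features fell, were RPT3 (-0.22 ± 0.06; adjusted p = 0.0083), PRE4 (-0.26 ± 0.08; adjusted p = 0.0146), RPT6 (-0.17 ± 0.05; adjusted p = 0.0169), PRE2 and RPN6. With wells below a final OD600 of 0.9 only, 3 of the 8 calls were lost: PUP3 (0.15, adjusted p = 0.288), PRE2 (-0.05, adjusted p = 0.624) and RPN6 (-0.11, adjusted p = 0.312). Along the cycloheximide gradient 0 members were called by limma, where 7.04% of tested features rose and 8.08% fell, and 5 had an unadjusted p under 0.05, as did 28.5% of tested features.

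**Figure D3:**
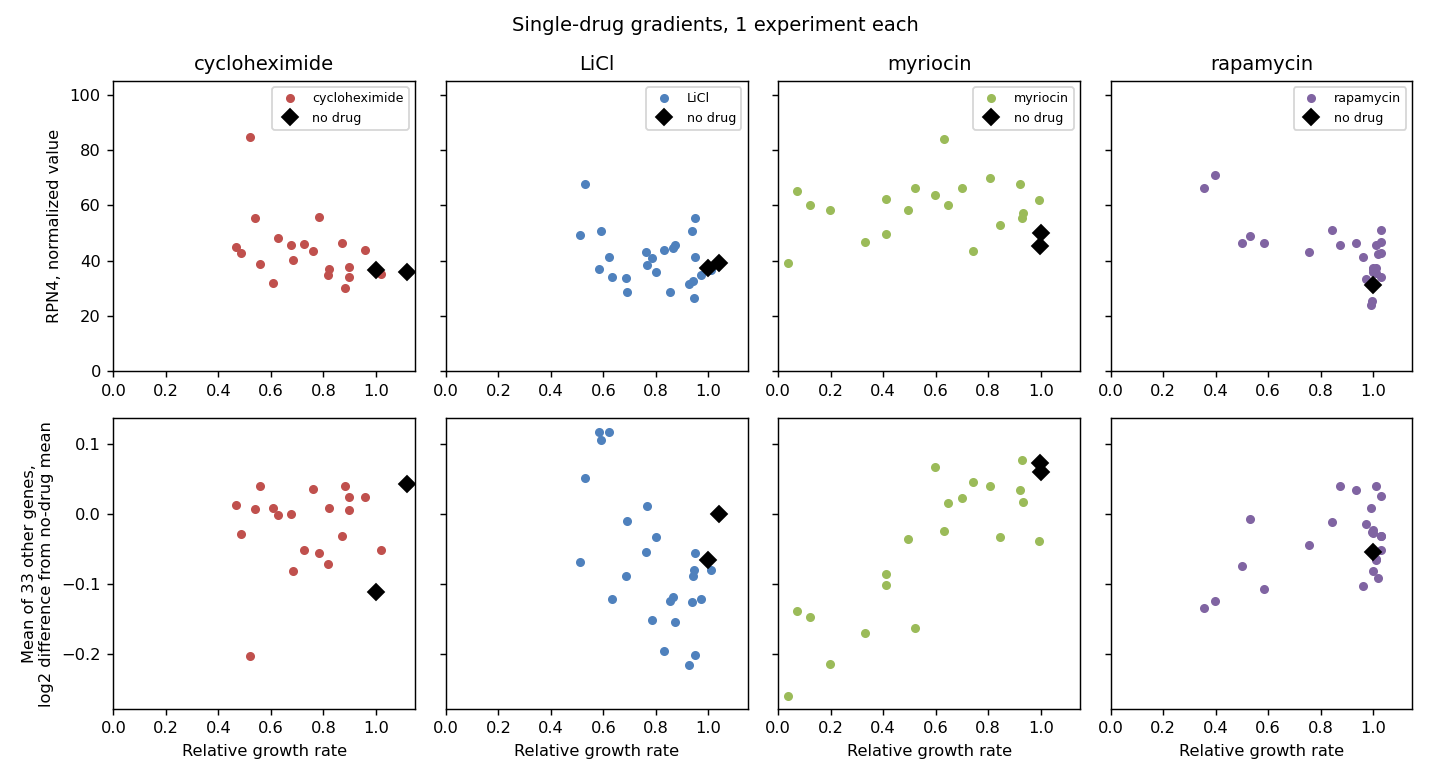
RPN4 (top, normalized value) and the mean of the 33 other genes (bottom, log2 difference from the no-drug mean) against relative growth rate in the experiment that holds each gradient; coloured points are single-drug wells and black diamonds drug-free wells of the same experiment. In the myriocin panel the 5 wells of lowest growth lie between -0.26 and -0.14 on the lower axis, while RPN4 lies between 39.2 and 65.4 there.

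In mixtures RPN4 was higher than with no drug in all 6 pairs. For LiCl with myriocin it had 50.2, 93.5 and 146.6 (lowest, median, highest; n = 26), against 23.4, 37.5 and 50.2 in all drug-free wells (n = 11) and 45.5 and 50.2 in the drug-free wells of its own grid. It was above every drug-free well in 26 of 26 wells, the lowest of them by a small margin (50.22 against 50.17). The rise was 0.66 ± 0.16 (limma adjusted p = 5.51e-04), and 0.89 within the grid. LiCl with rapamycin had 47.6, 59.2 and 70.5 (n = 18), above every drug-free well in 17 of 18, with a rise of 0.67 ± 0.15 (adjusted p = 5.98e-04). Cycloheximide with myriocin had 42.3, 58.6 and 76.8 (n = 20), with a rise of 0.74 ± 0.18 (adjusted p = 0.00242), which was 0.34 with the numbering series as the batch term (adjusted p = 0.0247), and myriocin with rapamycin 39.5, 57.9 and 74.6 (n = 16), with 0.66 ± 0.17 (adjusted p = 0.00654).

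Cycloheximide with rapamycin had 38.7, 51.9 and 65.7 (n = 19), with a rise of 0.54 ± 0.15 (limma adjusted p = 0.00841). Cycloheximide with LiCl had the lowest median of the mixtures, with 35.6, 43.5 and 70.2 (n = 22) and a rise of 0.49 ± 0.16 (adjusted p = 0.0223). This call was lost without the 8 shallow libraries (0.45, adjusted p = 0.057). Within each grid's own drug-free wells the differences were 0.61 for cycloheximide with LiCl, 0.43 for cycloheximide with myriocin, 0.46 for cycloheximide with rapamycin, 0.63 for LiCl with rapamycin and 0.79 for myriocin with rapamycin, each against 1 or 2 wells. All mixture wells belong to the higher growth-reference set, and the drug-free wells of the grids of cycloheximide with myriocin, LiCl with myriocin and myriocin with rapamycin all belong to the lower one, so in these 3 grids the mixture and the set cannot be told apart within the grid. The 3 drug-free wells of the higher set come from the grids of cycloheximide with LiCl, cycloheximide with rapamycin and LiCl with rapamycin. Against them the differences were 0.28 for cycloheximide with LiCl, 0.67 for cycloheximide with myriocin, 0.47 for cycloheximide with rapamycin, 1.28 for LiCl with myriocin, 0.71 for LiCl with rapamycin and 0.59 for myriocin with rapamycin. At least those of the grids of cycloheximide with LiCl and LiCl with rapamycin ended above a final OD600 of 0.9, which no mixture well reached. The set and the culture density cannot be told apart in these wells, and the alternative with drug-free wells below that density leaves them out. The 6 comparisons share drug-free wells. The differences from the 3 wells of the higher set had no term for the grid, so they include any offset between grids. In the grid of LiCl with myriocin the drug-free wells were high, as given above. Over the 16 groups, the medians of the 7 groups ranked from the second to the eighth, with 54.9 to 59.2, lay well within each other's ranges, and LiCl with myriocin stood above them.

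The number of subunit genes called in the mixtures depended on the batch term. With the experiment and the set in the model RPN4 was the single member called in cycloheximide with LiCl, where 5.82% of tested features rose and 6.12% fell, in cycloheximide with myriocin, where 8.37% rose and 7.68% fell, and in myriocin with rapamycin, where 3.23% rose and 3.79% fell. With the numbering series as the batch term 3, 9 and 4 members were called in these mixtures, RPN4 among them each time, and 8 of the 9 in cycloheximide with myriocin were falls. Cycloheximide with rapamycin raised RPN2 (0.28 ± 0.10; limma adjusted p = 0.0421; background 6.32% higher and 7.88% lower), a call that was lost with no filter on low values (0.28, adjusted p = 0.0503) and with drug-free wells below an OD600 of 0.9 (0.25, adjusted p = 0.191). LiCl with rapamycin raised RPN2 (0.48 ± 0.10; adjusted p = 1.14e-04) and PRE9 (0.19 ± 0.07; adjusted p = 0.04) and lowered PRE5 (-0.26 ± 0.08; adjusted p = 0.0229), where 6.7% of tested features rose and 7.16% fell. PRE9 lost its call with the numbering series (0.09, adjusted p = 0.226), with drug-free wells below an OD600 of 0.9 (0.18, adjusted p = 0.138), without the shallow libraries (0.14, adjusted p = 0.141) and with log2 depth as a covariate (0.16, adjusted p = 0.07), and PRE5 without the shallow libraries (-0.18, adjusted p = 0.13). RPN2 in LiCl with rapamycin had 311.2, 381.1 and 688.7, against 262.8, 305.2 and 350.1 with no drug, and lay above every drug-free well in 17 of 18 mixture wells.

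LiCl with myriocin raised PUP3 and lowered 4 subunit genes, where 10% of tested features rose and 11% fell, so the members' shares were near or below those of all features. PUP3, a beta subunit next to the catalytic ones, had 132.6, 169.4 and 243.5 in the mixture, against 108.5, 122.5 and 151.2 with no drug, and lay above every drug-free well in 16 of 26 mixture wells. It rose by 0.32 ± 0.09 (limma adjusted p = 0.00909). The ATPases RPT1 (-0.34 ± 0.11; adjusted p = 0.017) and RPT2 (-0.20 ± 0.07; adjusted p = 0.0235), the alpha subunit PRE6 (-0.25 ± 0.08; adjusted p = 0.0216) and PRE7 fell, PRE7 without passing when the numbering series was the batch term (-0.09, adjusted p = 0.236). The catalytic subunits did not pass: PRE3 had 161.6, 198.3 and 229.6 in this mixture, against 169.2, 187.7 and 205.4 with no drug, PUP1 149.1, 195.6 and 238.6, against 146.8, 168.7 and 189.3, and PRE2 212.3, 258.0 and 306.8, against 232.3, 251.6 and 348.9. RPN11 had 138.8, 194.04 and 242.9, against 125.4, 152.5 and 242.6, and UMP1 32.7, 50.2 and 65.3, against 42.4, 52.9 and 68.4.

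Whether mixtures left the straight line between their single drugs was tested on the dose share x of the second drug, as the coefficient of 4x(1 - x), which is the departure at equal shares. For LiCl with myriocin RPN4 departed upward by 0.47 ± 0.13 (limma adjusted p = 0.0103) and PUP3 by 0.28 ± 0.10 (adjusted p = 0.0446), and PRE9 departed downward by 0.18 ± 0.06 (adjusted p = 0.0375). The background was 6.84% upward and 4.71% downward. In that grid RPN4 had 92.2 and 89.1 in LiCl alone and 49.7 to 84.1 in myriocin alone. The highest mixture wells had 146.6, 132.9 and 127.7, at 0.185, 0.271 and 0.396 µg/ml of myriocin with 17900, 17900 and 15700 µg/ml of LiCl. The lowest had 50.2, at 0.51 µg/ml of myriocin with 2660 µg/ml of LiCl. At the same myriocin dose with 15700 µg/ml of LiCl, RPN4 was 89.6. Some mixtures held more of a drug than any single-drug well of the fit. LiCl reached 17900 µg/ml, against 15700 alone, and myriocin 0.962 µg/ml, against at most 0.51 alone. The dose share does not hold the total dose, and the part of total dose in the departure was not tested. The mixture wells all belong to the higher growth-reference set and the single-drug wells to both. With the set as a term none of the 3 passed: the estimates were 0.47 for RPN4 (adjusted p = 0.0597), 0.27 for PUP3 (adjusted p = 0.159) and -0.14 for PRE9 (adjusted p = 0.237). With log2 depth as a covariate RPN4 was called, and PUP3 (0.26, adjusted p = 0.0744) and PRE9 (-0.18, adjusted p = 0.0514) were not.

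The other pairs gave few departures. For cycloheximide with LiCl UMP1 (-0.36 ± 0.10; limma adjusted p = 0.0392) and the alpha subunit PRE8 (-0.24 ± 0.07; adjusted p = 0.0461) departed downward, with a background of 2.45% upward and 1.87% downward. Without the shallow libraries neither was called, with -0.35 for UMP1 (adjusted p = 0.0552) and -0.17 for PRE8 (adjusted p = 0.191). With the set as a term both were called, among 5 members in all (-0.48, adjusted p = 0.0134, and -0.35, adjusted p = 0.0111). In the remaining 4 pairs 0 members were called by limma. Of all tested features 1.04% were called upward and 0.259% downward in cycloheximide with myriocin, 10.6% and 7.2% in cycloheximide with rapamycin, 0.399% and 0.12% in LiCl with rapamycin, and 2.69% and 2.11% in myriocin with rapamycin. An unadjusted p under 0.05 was found for 3 members in cycloheximide with myriocin (12.6% of all tested features), for 1 in cycloheximide with rapamycin (30%), for 2 in LiCl with rapamycin (16%) and for 6 in myriocin with rapamycin (17.9%), so the members' shares were near or below those of all features. RPN4 departed by 0.56 ± 0.23 for cycloheximide with myriocin (adjusted p = 0.261), where each single drug had 1 well, in the set that holds none of the mixtures, and the estimate was -0.23 with the set as a term. It departed by 0.28 ± 0.12 for myriocin with rapamycin (adjusted p = 0.221; 0.28 with the set as a term, where 1 other member was called).

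**Figure D4:**
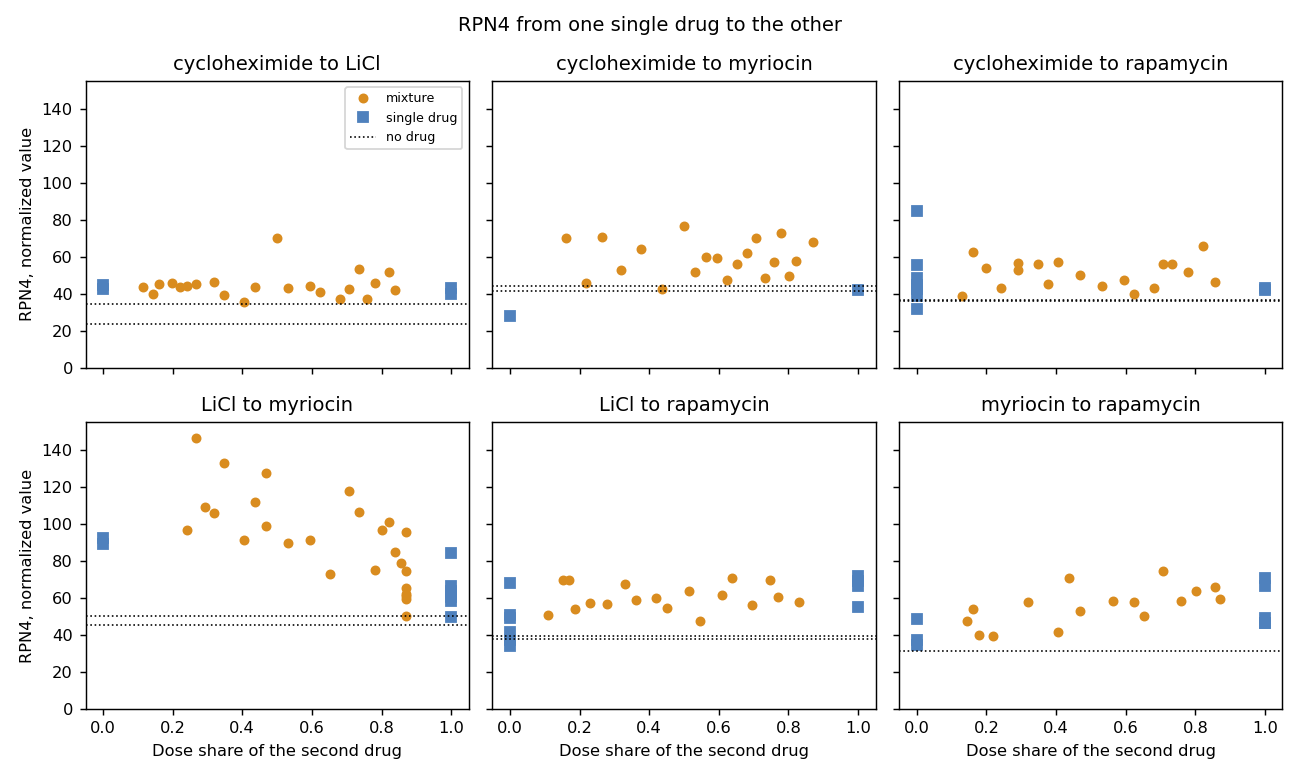
Normalized value of RPN4 against the dose share of the second drug in the 6 grids; orange circles are mixtures, blue squares single-drug wells at matched growth, and dotted lines the drug-free wells of the same grid. In the panel from LiCl to myriocin the mixtures run from 50.2 to 146.6 and most lie above the line between 89.1 to 92.2 in LiCl alone and 49.7 to 84.1 in myriocin alone.

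Genes around the proteasome were read from lists of 12 assembly and associated factors, 25 tested of 27 genes of ubiquitin conjugation and removal, 10 genes of Cdc48 and shuttle factors, 4 factors that bind the RPN4 promoter and 7 other targets of these. Under LiCl, where 8.39% of all tested features rose and 9.59% fell, 3 of 12 assembly and associated factors rose: ECM29, which holds core and cap together (0.64 ± 0.20; limma adjusted p = 0.019), the activator BLM10 (0.44 ± 0.14; adjusted p = 0.0182) and the deubiquitinase UBP6 (0.31 ± 0.08; adjusted p = 0.00456). The segregase CDC48 was the 1 of 10 in its list that rose (0.30 ± 0.07; adjusted p = 0.00109). Of the 4 factors YAP1 rose (0.68 ± 0.15; adjusted p = 8.20e-04). Of the ubiquitin genes UBC1 (0.46 ± 0.10; adjusted p = 0.0012) and UBR1 (0.31 ± 0.09; adjusted p = 0.0171) rose and UBC7 and UBC4 fell, so 4 of 25 were called.

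Under rapamycin, where 5.2% of all tested features rose and 6.48% fell, 2 of 25 ubiquitin genes rose and 1 fell: the polyubiquitin gene UBI4 rose by 0.31 ± 0.08 (limma adjusted p = 0.0078) and UBC1 by 0.44 ± 0.10 (adjusted p = 0.00229), while UBC7, a conjugating enzyme of degradation at the endoplasmic reticulum, fell by 0.44 ± 0.12 (adjusted p = 0.00792). None of the 4 factors passed at matched growth, but along the rapamycin gradient, where 13.1% of tested features rose, PDR1 (0.79 ± 0.20; adjusted p = 0.00333) and PDR3 (0.67 ± 0.11; adjusted p = 2.31e-05) rose. Under myriocin, where 6.96% of all tested features rose and 7.7% fell, 1 of 25 ubiquitin genes rose, UBC1, and 2 fell: UBR2, the ubiquitin ligase that targets Rpn4 (-0.58 ± 0.17; adjusted p = 0.0126), and HRD1. The drug pump PDR5, a target of Pdr1 and Pdr3, rose by 0.56 ± 0.16 (adjusted p = 0.0128), and by 0.92 ± 0.10 along the gradient (adjusted p = 1.75e-08). Along the same gradient, where 23.2% of all tested features fell and 20.4% rose, the core assembly factor POC4 rose by 0.76 ± 0.14 (limma adjusted p = 8.91e-05). The base assembly factors NAS2, HSM3 and RPN14 fell (3 of 12 in their list, near the share of all features), as did 10 of 25 ubiquitin genes. Whether these calls along the myriocin gradient depended on the strong wells was not tested. Under cycloheximide 0 genes of these lists passed.

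The PACE letters occur before 46 protein-coding genes outside the 34, and 41 of these were tested. Under LiCl 7 of the 41 rose and 2 fell, with a median of 0.08, beside 3 rises and 0 falls with a median of 0.10 in the 27 members with the element, and 3 rises and 1 fall with a median of 0.27 in the 7 members without it. Among 4689 tested features with a promoter in the annotation, 388 rose and 453 fell with a median of -0.02. CDC48, ECM29, UBA1, UBI4 and YAP1 are the genes of the lists that carry the element. Along the myriocin gradient 13 of the 27 members with the element fell and 1 of the 7 without it, and of the 41 other genes 11 fell and 7 rose, while among the 4689 features 1091 fell and 942 rose.

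Correlations between members are given as a description. After experiment means were removed, Pearson's r over 238 libraries had a median of 0.16 over the 528 pairs of the 33 genes other than RPN4 (-0.28 to 0.52), and 475 pairs were above 0. The median was 0.28 among lid genes, above those of the other parts and of pairs across parts (0.14 to 0.21), and RPN11 (0.65) and RPN8 (0.62), which form a dimer, had the highest r with the mean of the other subunits. PRE5 had -0.09 and UMP1 0.17. Libraries of a grid share an inoculum, and libraries differ in depth: the 33-gene mean had an r of 0.42 with log2 depth, and RPN4 had -0.04. The part of depth in the correlations between subunits was not tested.

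RPN4 had low correlations with the genes it activates. Its r with the mean of the 33 genes was 0.24 (Spearman's rho 0.20), 0.22 without the 2 libraries farthest from the median, and between -0.24 and 0.60 within single experiments. The median r of all tested features outside the list with that mean was 0.02. Counting error, larger at low values such as those of RPN4, was not removed here either. With single genes RPN4 had a median of 0.11, above 0 for 30 of 33, with PUP1 (0.31), RPN2 (0.31) and PUP3 (0.26) at the top and RPT1 (-0.05) at the bottom. In LiCl with myriocin RPN4 had a median of 107.5 in the 4 wells with the smallest myriocin share, 95.1 in 8 wells of the middle range and 77.1 in 14 wells with the largest, and the 33-gene mean had medians of 0.15, 0.06 and -0.04 there. Other grids gave other orders along the share of their second drug: in LiCl with rapamycin the medians of RPN4 were 56.9, 59.8 and 59.01 and those of the mean 0.09, -0.04 and -0.04, in cycloheximide with LiCl 44.7, 42.9 and 42.8 with -0.02, -0.01 and 0.14, and in myriocin with rapamycin 47.3, 55.3 and 63.9 with -0.09, -0.04 and -0.04. In the grids of cycloheximide with myriocin and with rapamycin the lowest RPN4 median was that of the middle range. The 10 genes outside the list whose pattern was most like the 33-gene mean were PIL1 (0.61), a component of eisosomes, PRX1 (0.59), NCE102 (0.58), MAL31, YNL144C, YML131W, PNS1 and the near-identical telomeric copies YRF1-4, YRF1-5 and YRF1-1, whose values are uncertain because reads can be split among copies. None of the 10 carried the PACE letters.

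**Figure D5:**
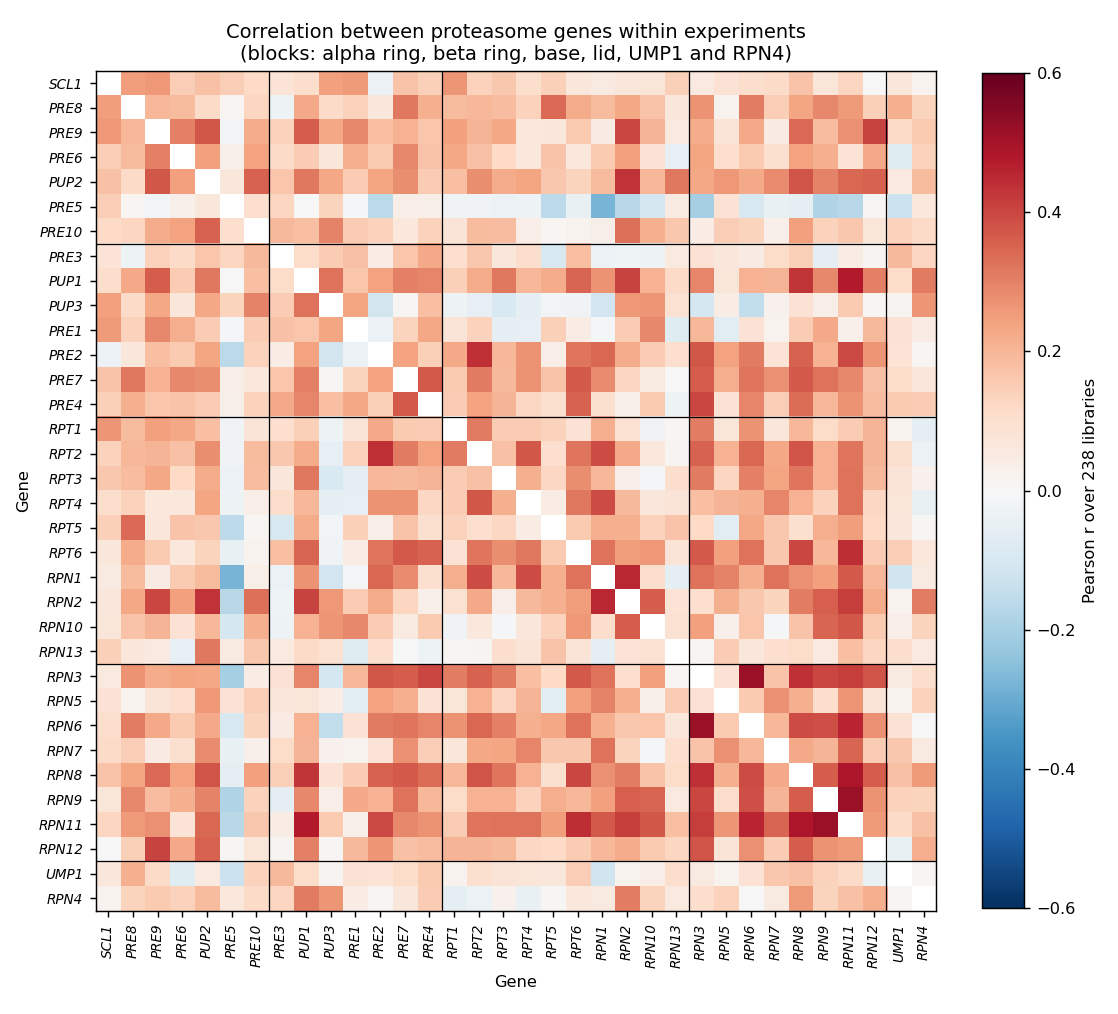
Pearson's r between members over 238 libraries after removal of experiment means, with lines between the alpha ring, the beta ring, the base, the lid, and UMP1 with RPN4; the diagonal is blank. The lid block at the lower right is the most evenly red (median 0.28), the row of PRE5 is mostly pale or blue, and RPN4 in the last row is faint (median 0.11).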

How the data were processed

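RNA was sequenced from the 3′ end with molecular identifiers, per the labels' protocols. Per the submitters' processing notes the tools were TopHat, UMI-tools and featureCounts, with build R64. Their versions, the strand setting and the handling of reads that match several places were not given in the sources used here. The authors deposited a normalized signal rather than counts: the largest value is 17026.2 in each library and totals are nearly equal, the pattern of quantile normalization. A count test was planned only for raw counts, so limma 3.58.1 (R 4.3.3, mean-variance trend) was run on log2(value + 1) of 5015 features. Models had terms for experiment and growth-reference set (the ratio of absolute to relative growth), slopes the set alone, and departures and the strong-myriocin contrast neither. Calls are Benjamini-Hochberg adjusted p under 0.05 over all features. The script was checked on simulated data. Depth was estimated from tied values. The genes shown with values were RPN4, the 3 called subunit genes of smallest p per direction, PRE3, PUP1, PRE2, RPN11, UMP1 and called genes of the lists (at most 4 a list). PRE5, RPN11 and PUP3 were also described after their values were seen. Members and lists were chosen with earlier results of these data known. Promoters were read from the RefSeq R64 genome. Alternatives changed pseudocount, filter, batch term, wells and depth.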

Additional observations from a re-analysis of the deposited data

Results flagged for a closer look

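The highest and lowest values of RPN4, PRE3, PUP1, PRE2, RPN11 and UMP1 were checked in each of the 4 groups of 4 to 10 libraries for a library that stands far from the others, 24 checks in all, and chance gives one in about 1 of 20. RPN4 stood apart in 1 growth-matched cycloheximide well, with 84.7. PRE3 stood apart in 1 mild myriocin well, with 246.6, and in 1 strong myriocin well, with 129.7. The contrasts between drugs gave members that differ: 8 between myriocin and LiCl, 7 between rapamycin and LiCl, 6 between LiCl and cycloheximide, 1 between rapamycin and myriocin (RPN4) and 1 between rapamycin and cycloheximide (PRE9).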

How the results depend on the processing

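No called result changed direction under the alternatives run, and with a pseudocount of 10 all 99 results for single genes kept their direction and call. The number of members called moved as follows, with the reported number in brackets. With no filter on low values it was 1 (2) for cycloheximide with rapamycin. With the numbering series of the libraries as batch term it was 0 (1) for rapamycin against myriocin, 4 (1) for rapamycin against cycloheximide, 1 (0) for myriocin against cycloheximide, 3 (1) for cycloheximide with LiCl, 9 (1) for cycloheximide with myriocin and 4 (1) for myriocin with rapamycin. With drug-free wells below an OD600 of 0.9 only it was 3 (7) for LiCl, 1 (2) for myriocin and 1 (2) for cycloheximide with rapamycin. Without the 8 shallow libraries it was 14 (7) for LiCl, 4 (2) for myriocin, 4 (1) for rapamycin, 4 (1) for rapamycin against myriocin, 18 (8) for myriocin against LiCl, 3 (0) and 8 (5) for the slopes of cycloheximide and LiCl, 0 (1) for cycloheximide with LiCl, 2 (4) for LiCl with rapamycin, 2 (1) for myriocin with rapamycin and 1 (2) for the departure of cycloheximide with LiCl. Chosen after seeing the data, gradient wells below OD600 0.9 gave 3 (5) for the LiCl slope, and the myriocin slope without wells of growth under 0.35 gave 2 (14). A depth covariate, also chosen then, gave 3 (1) for rapamycin, 3 (1) for rapamycin against myriocin, 4 (7) for rapamycin against LiCl, 3 (6) for LiCl against cycloheximide, 3 (0) and 8 (14) for the slopes of cycloheximide and myriocin, 0 (2) for strong myriocin, 3 (1) for myriocin with rapamycin, and 5 (2) and 1 (3) for the departures of cycloheximide with LiCl and LiCl with myriocin. The growth-reference set as a term, chosen then too, gave 0 (2) for strong myriocin, and 5 (2), 0 (3) and 1 (0) for the departures of cycloheximide with LiCl, LiCl with myriocin and myriocin with rapamycin. The cause was not tested. Leaving out 1 library at a time gave 0 to 1 members for cycloheximide, 2 to 9 for LiCl, 1 to 3 for myriocin, 1 to 2 for rapamycin and 0 to 4 for strong myriocin, and RPN4 under rapamycin stayed between 0.60 and 0.70. No paired analysis was possible because the labels give no replicate numbers that groups share. The shallowest library, a growth-matched LiCl well, had 64843 reads, which limits the precision of low genes such as RPN4.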
